A study of Mus musculus with 9 samples.

Results

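The circadian clock genes of the liver were described in 9 male mice through 10 genes, out of 55335 listed in the expression table: the activators Arntl and Clock, the repressors Per1, Per2, Per3 and Cry1, the E-box repressor Ciart, the nuclear receptor Nr1d1, and the bZIP factors Dbp and Nfil3. The genes were selected on the measured FPKM values of these same 9 mice and the differences between the groups, so their levels and differences are given as a description and no test of them is read. The groups consisted of 3 naturally conceived mice (NC-chow), 3 mice conceived by in vitro fertilization and fresh embryo transfer (IVF-chow) and 3 mice conceived by in vitro fertilization and transfer of frozen and thawed embryos (FET-chow). The IVF-chow and FET-chow embryos came from B6D2F1/J parents, and the strain of the NC-chow parents is not given separately in the sources used here. All mice were fed a chow diet, 20 weeks old and fasted for 4 h before the liver was removed. IVF-chow and FET-chow embryos were transferred at the 2-cell stage into pseudopregnant ICR females, whereas NC-chow mice came from natural pregnancies, so fertilization in vitro, embryo culture and the ICR recipient were shared by both transferred groups and by none of the controls. The egg donors of both transferred groups had been superovulated with hormones, and the embryos were transferred by surgery under isoflurane. FET-chow embryos had in addition been slowly frozen, stored and thawed. Animals were kept under a light and dark cycle, and the hour at which each liver was taken is not given in the sources used here. The labels number the mice 1, 5 and 6 in NC-chow and 2, 3 and 4 in both other groups, and whether mice of a group were litter mates is not stated.

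The clock is a feedback loop of transcription. ARNTL (BMAL1) and CLOCK bind E-boxes and activate the Per and Cry genes, Nr1d1, Dbp and Ciart, and the PER and CRY proteins return to inhibit them. NR1D1 (REV-ERB alpha) represses Arntl, Nfil3 and other genes through ROR elements, while DBP activates and NFIL3 represses genes that carry D-boxes. In mouse liver Dbp and Nr1d1 swing widely over the day and Arntl peaks at the opposite time, so 1 sample per mouse gives the state at 1 moment.

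The output factor Dbp differed most between group means in FPKM, and averaged 18.3 ± 4.72 FPKM in NC-chow, 1.7 ± 1.4 in IVF-chow and 1.77 ± 1.14 in FET-chow (SD, n = 3 each). FPKM counts fragments per kilobase of gene, relative to all mapped fragments of the library, so levels of different genes are compared per length throughout. Per3 and Ciart were likewise lower in each IVF-chow and FET-chow mouse than in each NC-chow mouse. Nr1d1 shared that order in the deposited values but not for FET-chow after rescaling between libraries. Nfil3 was listed at 0 in all 3 FET-chow mice and overlapped between NC-chow and IVF-chow. Per1 overlapped between all groups, Clock and Cry1 did so in the deposited values but not between IVF-chow and NC-chow after rescaling, and Arntl was at or below 0.195 FPKM in every mouse except IVF-chow mice 3 and 4.

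The promoters are shown for the genes in which the letters of a clock motif were found, because the difference between the groups was unequal among genes that the loop is known to control. Windows from 250 bases before to 50 bases after the annotated start site were taken from RefSeq on build GRCm38.p6, and 9 of the 10 genes matched, with 13 windows. Motifs were searched as exact letters on both strands: the E-box CACGTG, the E'-box CACGTT, the D-box TTATGTAA or TTACGTAA, the ROR element core TAGGTCA or TGGGTCA, and the CRE TGACGTCA. None of these words contains another. Among 32851 mouse windows of the same 300 bases, 7.15% held the E-box, 4.68% the E'-box, 1.06% the D-box, 6.45% the ROR element core and 1.79% the CRE. The Ciart window held 3 E-boxes, at 58 and 44 bases before the start and once farther upstream, and 0.0883% of windows held 3 or more. The Per3 window held 2 D-boxes, at 205 and 158 bases before the start, and 0.0244% of windows held 2 or more. The 250 bases before the start site are printed for both, on the minus strand, at chr3:95882229-95882478 and chr4:151044666-151044915, with the motifs in capitals.
Ciart: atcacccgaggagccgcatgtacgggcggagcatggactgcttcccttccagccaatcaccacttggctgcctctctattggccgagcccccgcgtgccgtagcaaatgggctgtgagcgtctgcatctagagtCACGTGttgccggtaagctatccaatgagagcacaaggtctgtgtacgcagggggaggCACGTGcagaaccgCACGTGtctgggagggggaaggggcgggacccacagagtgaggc
Per3: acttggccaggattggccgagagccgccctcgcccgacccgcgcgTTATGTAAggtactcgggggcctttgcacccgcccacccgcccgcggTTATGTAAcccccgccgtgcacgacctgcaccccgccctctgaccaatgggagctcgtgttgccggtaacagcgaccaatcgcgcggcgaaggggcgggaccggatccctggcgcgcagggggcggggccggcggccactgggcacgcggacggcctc

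In the 5 other genes with a match, 30 bases around 1 motif are printed, with the motif in capitals and read on the strand of the gene. The stretches lie at chr11:69098771-69098800 (Per1, E-box, plus strand), chr10:85185097-85185126 (Cry1, E-box, minus strand), chr11:98775388-98775417 (Nr1d1, E'-box in reverse orientation, minus strand), chr13:52981033-52981062 (Nfil3, ROR element core in reverse orientation, minus strand) and chr7:113207530-113207559 (Arntl, ROR element core 31 bases after the second annotated start, plus strand). Cry1 also held an E'-box, 79 bases before its start.
Per1: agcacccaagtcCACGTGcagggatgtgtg
Cry1: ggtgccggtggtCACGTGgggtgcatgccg
Nr1d1: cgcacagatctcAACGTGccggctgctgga
Nfil3: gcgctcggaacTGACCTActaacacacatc
Arntl: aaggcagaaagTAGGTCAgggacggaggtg

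None of these letters was found in the windows of Clock or Dbp, and the CRE was found in no window of the 9 genes. A match is given as a feature of the sequence, since binding was not measured here.

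**Figure D1:**
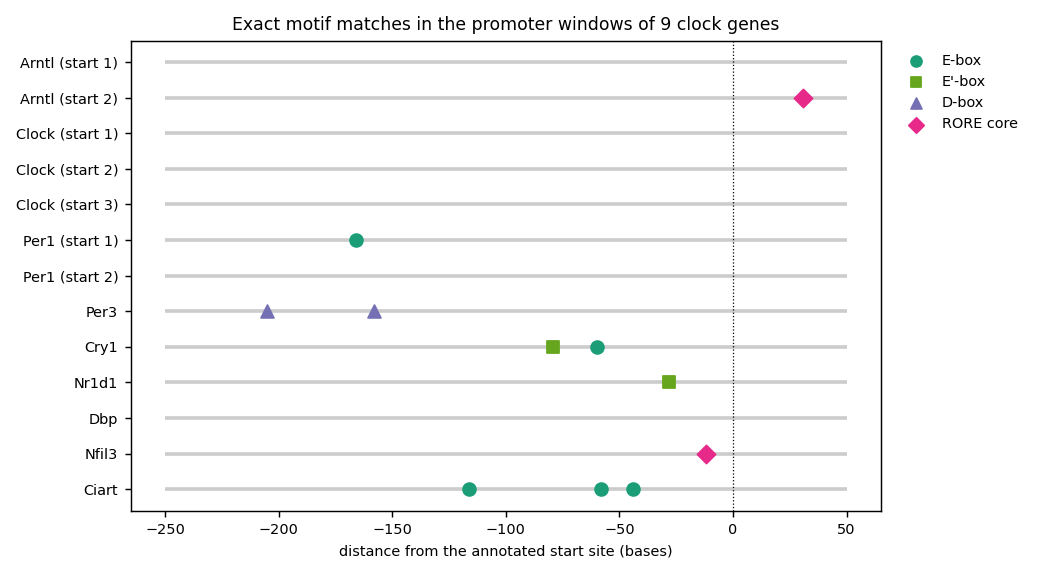
Positions of exact motif matches in the RefSeq promoter windows of 9 clock genes, with the distance of the first motif base from the annotated start site in bases on the x axis and 1 line per window. Ciart carries 3 E-boxes and Per3 carries 2 D-boxes, and the windows of Clock and Dbp carry none.

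The libraries differed in depth and composition. The table holds FPKM and no counts, and mapped fragments, estimated from the spacing of low values, where each further fragment adds a fixed step, numbered between 6590000 and 13340000 in NC-chow, between 3880000 and 8420000 in IVF-chow and between 2020000 and 2930000 in FET-chow, so each FET-chow library was smaller than all others. The 3 most abundant entries related to ribosomal RNA took between 3.5% and 61.9% of the summed FPKM, nuclear protein-coding genes took between 4.4% and 29.3%, and between 8071 and 19360 genes were above 0. The number that ends each library's description in the labels was adjacent for the IVF-chow and FET-chow mice, and NC-chow mice 5 and 6 stood apart from NC-chow mouse 1 and the rest. Hepatocyte markers (5 of 6 listed genes matched) summed to 10300 to 19100 FPKM in NC-chow, 3390 to 30700 in IVF-chow and 4520 to 15400 in FET-chow, with each of the 5 above 0 in all mice. Their median log2(FPKM + 1) difference in FET-chow against NC-chow was -1.23, with 4 of 5 negative, against -0.46 over all genes tested. Alb (at most 5830 against at least 6270 FPKM) and Fgb lay below all NC-chow values in each FET-chow mouse, and 0 of the 5 were called by limma or passed an unadjusted p under 0.05. Markers of Kupffer cells (5 genes) summed to 11.7 to 26.2, 3.57 to 27.7 and 10.6 to 76.5 FPKM in the same order, with no marker at 0 in all mice of a group, and of the 3 in the fit 1 was negative and 2 positive in FET-chow against NC-chow, at -0.40 for Clec4f, 0.14 for Vsig4 and 1.34 for Cd5l. Only Cd5l did not overlap (at least 5.44 FPKM in FET-chow and at most 4.92 in NC-chow). Those of endothelial cells (5 genes) summed to between 2.32 and 10.8, of stellate cells (5 genes) to between 3.52 and 19.0, of cholangiocytes (4 genes) to between 0.331 and 7.02 and of lymphocytes (3 genes) to between 0.0379 and 0.907 over all mice. In the last 2 lists 1 gene each was at 0 in all FET-chow mice. The 2 globin genes summed to 57.0 to 483 FPKM. The part of depth, composition and these cell types in the differences below was not tested, and in whole liver fewer cells of a type and less RNA per cell cannot be told apart.

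The activator genes had the lowest means over the 9 mice. Arntl, at chr7:113207465-113314126 (build GRCm38), stood at 0, 0.141 and 0.195 FPKM in NC-chow mice 1, 5 and 6, at 0.103, 0.747 and 0.812 in IVF-chow mice 2, 3 and 4, and at 0 in each of the 3 FET-chow mice. IVF-chow mice 3 and 4 were the highest of all, and IVF-chow mouse 2 lay among the NC-chow mice. At the estimated depths these values rest on at most 13 fragments in any mouse. A true count of 0 allowed up to 3 fragments, that is up to 0.256 to 0.372 FPKM in the FET-chow libraries, which is above every NC-chow value, so FET-chow was not distinguishable from NC-chow at this depth. Such limits cover counting error only, and an exact 0 in a table of FPKM can also be a failed estimate, for which no such limit holds. Whether the zeros described here are of that kind was not tested.

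Clock encodes the partner of ARNTL and lies at chr5:76209868-76304792. It stood at 0.288, 0.531 and 0.841 FPKM in NC-chow, 0.559, 1.18 and 1.57 in IVF-chow, and 0.794, 1.33 and 0.243 in FET-chow mice. The groups overlapped, with the lowest value in FET-chow mouse 4. Arntl and Clock had a mean below 1 FPKM over the 9 mice and were therefore outside the 6755 genes fitted. Their differences depended on how the libraries were scaled: after median-ratio scaling, and after rescaling the nuclear protein-coding genes to a sum of 1000000 in each mouse, both were higher in all 3 IVF-chow mice than in all 3 NC-chow mice. In the latter units Clock was at 3.07, 3.84 and 5.37 in NC-chow, 14.3, 10.8 and 6.80 in IVF-chow, and 8.69, 10.3 and 5.35 in FET-chow mice, where FET-chow still overlapped NC-chow through mouse 4.

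**Figure D2:**
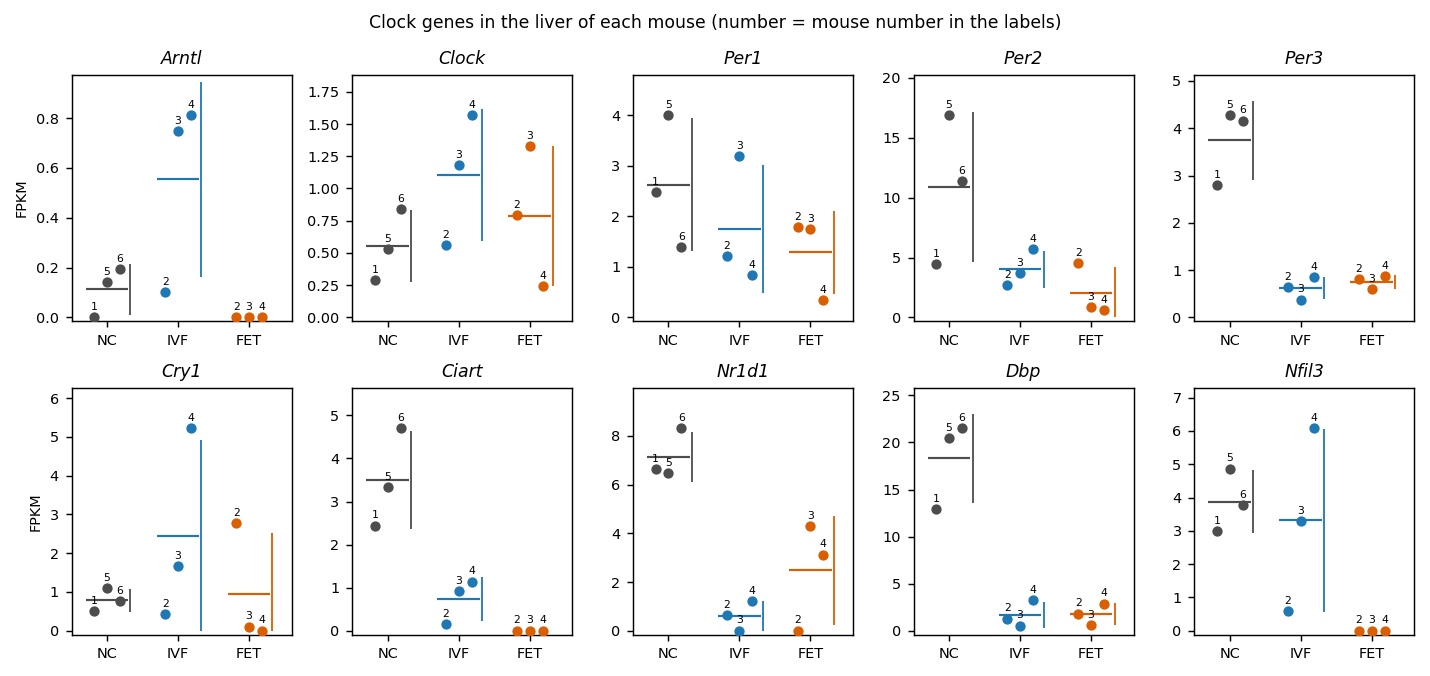
FPKM of the 10 clock genes (y axis, a separate linear scale for each gene) in each mouse by group (x axis: NC-chow, IVF-chow and FET-chow mice as NC, IVF and FET). Points are mice with their numbers, horizontal lines are group means and vertical lines are SD cut at 0, and neither is drawn for a group listed at 0 throughout. Dbp lies between 12.9 and 21.5 in NC-chow and at or below 3.26 in the other mice, while Per1 and Clock overlap.

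Among the repressors, Per1 and Per2 respond to acute signals as well as to the clock. Per1, at chr11:69095217-69109960, stood at 2.47, 4.00 and 1.39 FPKM in NC-chow, 1.21, 3.19 and 0.842 in IVF-chow, and 1.78, 1.74 and 0.339 in FET-chow mice. The 3 groups overlapped, with log2(FPKM + 1) differences from NC-chow of -0.43 in IVF-chow and -0.68 in FET-chow (SE 0.60 each). Leaving out 1 mouse moved them between -0.78 and -0.16 in IVF-chow and between -0.94 and -0.33 in FET-chow. The differences and SE come from limma fitted across all 6755 genes with a mean of at least 1 FPKM, and on this scale the change of a low gene is understated.

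Per2, at chr1:91415982-91459324, stood at 4.42, 16.9 and 11.4 FPKM in NC-chow, 2.67, 3.70 and 5.69 in IVF-chow, and 4.55, 0.858 and 0.628 in FET-chow mice. NC-chow mice 5 and 6 were above all other mice, and NC-chow mouse 1 lay among the IVF-chow mice and just below FET-chow mouse 2. After median-ratio and quantile scaling each FET-chow mouse was below each NC-chow mouse (at most 3.93 against at least 4.49, and 4.78 against 5.09), whereas after coding scaling they overlapped. The differences from NC-chow were -1.13 in IVF-chow and -2.05 in FET-chow (SE 0.72 each) on the log2(FPKM + 1) scale, and against NC-chow mouse 1 alone they were -0.15 and -1.08.

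Per3, the third Period gene, at chr4:151003652-151044665, was more uniform. It stood at 2.79, 4.28 and 4.16 FPKM in NC-chow, 0.647, 0.375 and 0.852 in IVF-chow, and 0.812, 0.592 and 0.869 in FET-chow mice. All IVF-chow and FET-chow values lay below 1 FPKM and the lowest NC-chow value at 2.79, so the groups did not overlap, whereas IVF-chow and FET-chow overlapped. The ratio of means was 5.99 for NC-chow over IVF-chow and 4.94 for NC-chow over FET-chow. On the log2(FPKM + 1) scale the differences were -1.54 in IVF-chow and -1.42 in FET-chow (SE 0.57 each), and against NC-chow mouse 1 alone -1.23 and -1.11. At the estimated depths Per3 rested on 110 to 333 fragments in NC-chow, and on 10 to 33 in the other groups. It is the gene with a pair of D-boxes printed above.

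Cry1, whose product represses ARNTL and CLOCK, lies at chr10:85131700-85185064. It stood at 0.505, 1.09 and 0.764 FPKM in NC-chow, 0.436, 1.67 and 5.22 in IVF-chow, and 2.77, 0.108 and 0 in FET-chow mice. The spread within IVF-chow and FET-chow exceeded the difference between the groups, which was 0.70 for IVF-chow and -0.14 for FET-chow on the log2(FPKM + 1) scale (SE 0.62 each). The IVF-chow difference was 0.15 without IVF-chow mouse 4 and 1.2 without IVF-chow mouse 2. The sign for FET-chow was kept in 10 of 14 alternative settings, with values from -1.13 to 0.30, and it was -0.75 without FET-chow mouse 2. After each of the 3 rescalings between libraries, Cry1 was higher in all IVF-chow mice than in all NC-chow mice.

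Ciart (CHRONO) encodes an E-box repressor of the same loop and lies at chr3:95878503-95882251. It stood at 2.44, 3.34 and 4.70 FPKM in NC-chow and at 0.153, 0.918 and 1.14 in IVF-chow mice, and was listed at 0 in FET-chow mice 2, 3 and 4. The lowest NC-chow mouse was above the highest IVF-chow mouse, with a difference of -1.39 (SE 0.57) on the log2(FPKM + 1) scale and a ratio of means of 4.74. If the zeros are true counts, they allowed up to 0.766, 0.553 and 0.528 FPKM in the 3 FET-chow libraries. That is below all NC-chow values but above IVF-chow mouse 2, so FET-chow could not be ordered against IVF-chow at this depth. The IVF-chow values rested on an estimated 2 to 9 fragments.

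Nr1d1 links the arms of the clock by repressing Arntl, and lies at chr11:98767932-98775333. It stood at 6.62, 6.46 and 8.31 FPKM in NC-chow, 0.626, 0 and 1.22 in IVF-chow, and 0, 4.31 and 3.12 in FET-chow mice. Every NC-chow mouse was above every other mouse, and FET-chow mice 3 and 4 were nearer to NC-chow than any IVF-chow mouse was. The differences from NC-chow were -2.40 in IVF-chow and -1.53 in FET-chow (SE 0.65 each) on the log2(FPKM + 1) scale, and the latter was -0.79 without FET-chow mouse 2. Rescaling on the nuclear protein-coding genes gave 70.6, 46.7 and 53.1 in NC-chow and 16, 0 and 5.30 in IVF-chow, but 0, 33.3 and 68.7 in FET-chow mice. FET-chow mouse 4 then lay within the NC-chow range, as it did after median-ratio scaling (5.90 against 4.59 to 6.74) and after quantile normalization (7.04 against 5.74 to 7.63). Of the exon bases of Nr1d1, 8.5% are shared with Thra on the opposite strand, and strandedness is not stated, so reads of the shared 263 bases cannot be told apart. Thra stood at 0.457 to 1.78 FPKM in NC-chow, 0.234 to 1.12 in IVF-chow and 0 to 1.34 in FET-chow.

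Dbp, the D-box activator that carries the clock signal to metabolic genes, lies at chr7:45705088-45710203. It stood at 12.9, 20.5 and 21.5 FPKM in NC-chow, 1.28, 0.552 and 3.26 in IVF-chow, and 1.82, 0.611 and 2.89 in FET-chow mice. The lowest NC-chow value was above the highest of the other mice, IVF-chow mouse 4, and the IVF-chow and FET-chow values interleaved. The ratio of means was 10.8 for NC-chow over IVF-chow and 10.3 for NC-chow over FET-chow. On the log2(FPKM + 1) scale the differences were -2.94 in IVF-chow and -2.86 in FET-chow, with an SE of 0.70, and between FET-chow and IVF-chow the difference was 0.08 with the same SE. Against NC-chow mouse 1 alone the differences were -2.49 in IVF-chow and -2.42 in FET-chow. At the estimated depths Dbp rested on 156, 451 and 528 fragments in NC-chow, on 20, 5 and 23 in IVF-chow and on 7, 3 and 16 in FET-chow mice.

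Rescaling narrowed the spread of Dbp within NC-chow. Relative to nuclear protein-coding genes it was 138, 149 and 138 in NC-chow, 32.6, 5.05 and 14.2 in IVF-chow, and 19.9, 4.72 and 63.6 in FET-chow mice. Per3 was at 29.7, 31.0 and 26.6, then 16.5, 3.43 and 3.70, then 8.89, 4.58 and 19.1 in the same order, so FET-chow mouse 4 and IVF-chow mouse 2, the mice with the smallest share of coding FPKM, came nearest to NC-chow. Dbp, Per3 and Ciart remained lower in each IVF-chow and FET-chow mouse than in each NC-chow mouse after the median-ratio, coding and quantile scalings alike. Of the exon bases of Dbp, 18% (539 bases) are shared with Sphk2 on the opposite strand. Sphk2 stood at 0.329, 4.42 and 5.41 FPKM in NC-chow, 0.643, 0.811 and 1.13 in IVF-chow, and 2.61, 4.58 and 1.66 in FET-chow mice, and reads of the shared bases cannot be told apart.

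**Figure D3:**
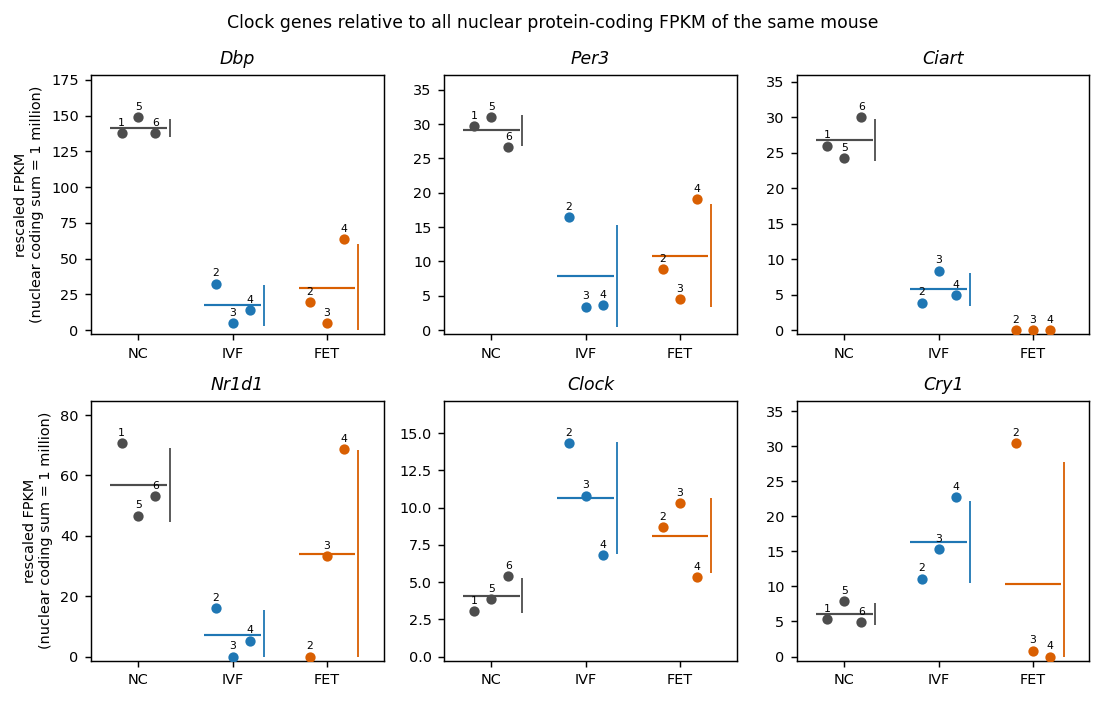
Dbp, Per3, Ciart, Nr1d1, Clock and Cry1 after each mouse was rescaled so that nuclear protein-coding FPKM sum to 1000000 (y axis, a separate linear scale per gene) in NC-chow, IVF-chow and FET-chow mice (x axis: NC, IVF, FET), with points, means and SD drawn as for the FPKM values. Dbp, Per3 and Ciart stay apart from NC-chow, Nr1d1 of FET-chow mouse 4 (68.7) lies within NC-chow, and Clock and Cry1 are higher in IVF-chow than in NC-chow.

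Ratios within a mouse do not change when all its values are multiplied by 1 factor, as in the median-ratio and coding scalings. The ratio of Dbp to Per1 FPKM was 5.24, 5.13 and 15.4 in NC-chow, 1.06, 0.173 and 3.88 in IVF-chow, and 1.02, 0.351 and 8.51 in FET-chow mice, so FET-chow mouse 4 was in the NC-chow range and the other IVF-chow and FET-chow mice were below it. Dbp over Rora, the receptor gene that opposes Nr1d1, was 9.10, 15.6 and 21.8 in NC-chow, 1.90, 0.555 and 2.58 in IVF-chow, and 1.97, 0.513 and 8.49 in FET-chow mice, without overlap. Dbp over Alb, the albumin gene of hepatocytes, was 0.00206, 0.00193 and 0.00216 in NC-chow, 0.000757, 7.21e-05 and 0.000158 in IVF-chow, and 0.000312, 0.000121 and 0.00218 in FET-chow mice. On that base FET-chow mouse 4 was level with NC-chow. Dbp over Tef, a related D-box activator gene, was 1.85, 4.29 and 10.2 in NC-chow, 2.26, 0.137 and 0.486 in IVF-chow, and 0.375, 0.186 and 1.49 in FET-chow mice, so IVF-chow mouse 2 was above NC-chow mouse 1. The order of FET-chow mouse 4 and IVF-chow mouse 2 against NC-chow therefore depended on the gene that Dbp was set against. The same held for other clock genes. Per3 over Alb was 0.000445, 0.000401 and 0.000418 in NC-chow, 0.000384, 4.9e-05 and 4.14e-05 in IVF-chow, and 0.000139, 0.000118 and 0.000656 in FET-chow mice, so FET-chow mouse 4 was above all NC-chow mice. Per3 over Per1 in FET-chow mouse 4 (2.56) was also within the NC-chow range (1.07 to 2.98). Ciart over Per1 was 0.99, 0.835 and 3.37 in NC-chow and 0.126, 0.288 and 1.35 in IVF-chow mice, so IVF-chow mouse 4 was above NC-chow mice 1 and 5.

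Nfil3, the D-box repressor that opposes Dbp, lies at chr13:52967209-52981073. It stood at 2.99, 4.87 and 3.77 FPKM in NC-chow and at 0.584, 3.29 and 6.08 in IVF-chow mice, and was listed at 0 in all 3 FET-chow mice. NC-chow and IVF-chow overlapped, with a log2(FPKM + 1) difference of -0.40 (SE 0.60) for IVF-chow, which was 0.19 without IVF-chow mouse 2. If the zeros are true counts, they allowed up to 0.733, 0.529 and 0.505 FPKM in the FET-chow libraries. All NC-chow mice and IVF-chow mice 3 and 4 were above those limits, whereas IVF-chow mouse 2 was not above all of them. Dbp over Nfil3 was 4.32, 4.22 and 5.71 in NC-chow and 2.18, 0.168 and 0.537 in IVF-chow mice, so the activator was lower against its repressor in each IVF-chow mouse. In FET-chow no such ratio could be formed.

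Across the list, 8 of the 10 genes were in the fit. With limma and a Benjamini-Hochberg adjusted p under 0.05, 0 of these 8 were called in FET-chow against NC-chow, where 0.237% of the 6755 genes were. At an unadjusted p under 0.05, 6 of 8 were lower in FET-chow, against 10.1% of all genes. Every FET-chow mouse was below every NC-chow mouse for 5 of 8 (Per3, Nr1d1, Dbp, Nfil3 and Ciart), against 17.1% of all genes. The median log2(FPKM + 1) difference was -1.79 over the 8 genes and -0.46 over all genes tested. These genes were selected on the same contrast, so nothing is read from these counts.

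In IVF-chow against NC-chow, limma called 0 of 8 where 0.0592% of all genes were called. At an unadjusted p under 0.05, 4 of 8 were lower in IVF-chow, against 2.86% of all genes. Every IVF-chow mouse was below every NC-chow mouse for 4 of 8 (Per3, Nr1d1, Dbp and Ciart), against 5.46% of all genes. The same 4 were lower in both groups than in all NC-chow mice, as were 2.74% of all genes. The median difference was -1.26 over the 8 genes and -0.25 over all. Both comparisons use the same 3 NC-chow mice and are not independent.

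In FET-chow against IVF-chow, limma called 0 of 8 where 0.0888% of all genes were called, and 1 of 8 (Nfil3) was lower at an unadjusted p under 0.05, against 2.95% of all genes. As listed, Nfil3 and Ciart (2 of 8) were below all IVF-chow mice in each FET-chow mouse, against 2.56% of all genes, but IVF-chow mouse 2 lay below the limit of a count of 0 in at least 1 FET-chow library for both, and Ciart overlapped after quantile normalization. They were also the genes of these 8 listed at 0 in all FET-chow mice, as were 1.69% of all genes. The median difference was -0.50 over the 8 genes and -0.20 over all. Medians of all genes moved towards 0 after rescaling: in FET-chow against NC-chow to -0.14 (median-ratio), -0.18 (coding) and 0 (quantile), where the median over the 8 genes was -1.35, -2.09 and -1.27.

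The other genes of the pathway were taken from a list of 23 further clock genes and 18 output genes of the liver clock, of which 13 and 15 were in the fit. Among the 13 further clock genes limma called 0 in any comparison. At an unadjusted p under 0.05 it gave 1 lower gene in FET-chow and 1 in IVF-chow, Nr1d2 in both, and 0 in FET-chow against IVF-chow, where 10.1%, 2.86% and 2.95% of all genes were lower in the same order. Nr1d2, the paralogue of Nr1d1, stood at 3.89, 9.59 and 11 FPKM in NC-chow, 1.76, 1.38 and 4.22 in IVF-chow, and 2.33, 1.12 and 2.03 in FET-chow mice. In the deposited values FET-chow did not overlap NC-chow, and IVF-chow mouse 4 was above NC-chow mouse 1. After coding scaling FET-chow mouse 4 lay above NC-chow mouse 1, so FET-chow overlapped NC-chow. The log2(FPKM + 1) differences were -1.62 in FET-chow (SE 0.67, limma adjusted p = 0.324) and -1.39 in IVF-chow (SE 0.67, limma adjusted p = 1). All 13 were negative in FET-chow, as were 74.4% of all genes, with a median of -0.45 against -0.46 for all genes, and 3 of 13 did not overlap, against 17.1% of all genes. In IVF-chow 10 of 13 were negative, as were 68.9% of all genes, with a median of -0.38 against -0.25.

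Other genes of that list differed less. In FET-chow against NC-chow the differences were -0.91 (SE 0.64) for the E-box repressor gene Bhlhe40, -0.72 (SE 0.66) for Sfpq, which encodes a PER partner, and -0.58 (SE 0.59) for the ligase gene Fbxw11. None of these passed, with limma adjusted p values between 0.6 and 0.739. In IVF-chow against NC-chow the differences were -1.23 for Bhlhe40, 0.26 for Sfpq and -1.03 for Fbxw11, and none passed. Fbxw11 stood at 0.279, 0.156 and 0.489 FPKM in IVF-chow and 1.95, 1.41 and 1.64 in NC-chow mice. It was the 1 gene of the 13 without overlap there, against 5.46% of all genes. Tef and Hlf, the closest relatives of Dbp, and Rora were looked up after their values were seen. Tef stood at 6.99, 4.79 and 2.11 FPKM in NC-chow, 0.564, 4.04 and 6.72 in IVF-chow, and 4.85, 3.28 and 1.93 in FET-chow mice, which overlapped. Hlf differed by -0.14 (SE 0.59) in FET-chow and -0.04 in IVF-chow, and Rora by -0.33 (SE 0.57) and -0.19. Cry2 and Npas2 had a mean below 1 FPKM and were not fitted.

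Among the 15 output genes, limma called 1 in FET-chow against NC-chow, Rgs16, and 0 in both other comparisons, and at an unadjusted p under 0.05 it gave 4 lower genes in FET-chow (10.1% of all genes) and 2 in IVF-chow (2.86% of all genes), each set against NC-chow, and 2 when FET-chow was set against IVF-chow (2.95% of all genes). Rgs16, a regulator of G-protein signalling whose transcript cycles in liver, stood at 1.96, 9.78 and 8 FPKM in NC-chow, 0.206, 0.869 and 2.16 in IVF-chow, and 0.388, 0 and 0 in FET-chow mice. FET-chow lay below NC-chow throughout, with a log2(FPKM + 1) difference of -2.56 (SE 0.61, limma adjusted p = 0.0483), and IVF-chow mouse 4 was above NC-chow mouse 1. The call was lost in most alternative settings, with a limma adjusted p of 0.00936 without NC-chow mouse 1 and 0.454 with no filter. Against NC-chow mouse 1 alone the difference was smaller, at -1.41. The call was also lost without NC-chow mouse 5 (0.347), NC-chow mouse 6 (0.261), FET-chow mouse 3 (0.206) or FET-chow mouse 4 (0.142), with differences of -2.21, -2.34, -2.49 and -2.49. Since 2 FET-chow values are 0, the size depends on the pseudocount, and it was -5.01 with a pseudocount of 0.1. The list's median difference was -1.04 in FET-chow and -0.37 in IVF-chow, with 14 and 9 of 15 negative, against 74.4% and 68.9% of all genes.

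Metabolic output genes gave values with a wide error. Cyp2a5, a D-box controlled coumarin hydroxylase, stood at 403, 313 and 368 FPKM in NC-chow, 96.7, 207 and 1070 in IVF-chow, and 130, 22.2 and 31.7 in FET-chow mice. Its log2(FPKM + 1) difference was -2.96 in FET-chow (SE 1.12) and -0.37 in IVF-chow, where mouse 4 exceeded all NC-chow mice. Upp2, a uridine phosphorylase, stood at 19.8, 19.5 and 28.3 FPKM in NC-chow, 2.12, 8.81 and 30.1 in IVF-chow, and 3.79, 3.00 and 4.36 in FET-chow mice. The difference was -2.31 in FET-chow (SE 0.86) and -1.24 in IVF-chow, and FET-chow did not overlap NC-chow. The other differences in FET-chow were -1.99 (SE 0.68) for the rhythmic gene Noct (nocturnin), -1.39 (SE 0.85) for Gys2, the liver glycogen synthase, and -1.26 (SE 0.96) for Elovl3, a fatty acid elongase. In IVF-chow they were -1.58 for Noct, -1.53 for Gys2 and 0.55 for Elovl3, the last in the other direction. Elovl3 stood at 5.58, 4.91 and 29.8 FPKM in NC-chow, 2.18, 36.7 and 30.2 in IVF-chow, and 0, 21.0 and 2.98 in FET-chow mice. The groups overlapped for Elovl3. Its FET-chow difference rested largely on mouse 2, whose 0 makes the size depend on the pseudocount. Over these 5 genes limma adjusted p values in FET-chow lay between 0.223 and 0.637, so none passed there, and none passed in IVF-chow.

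**Figure D4:**
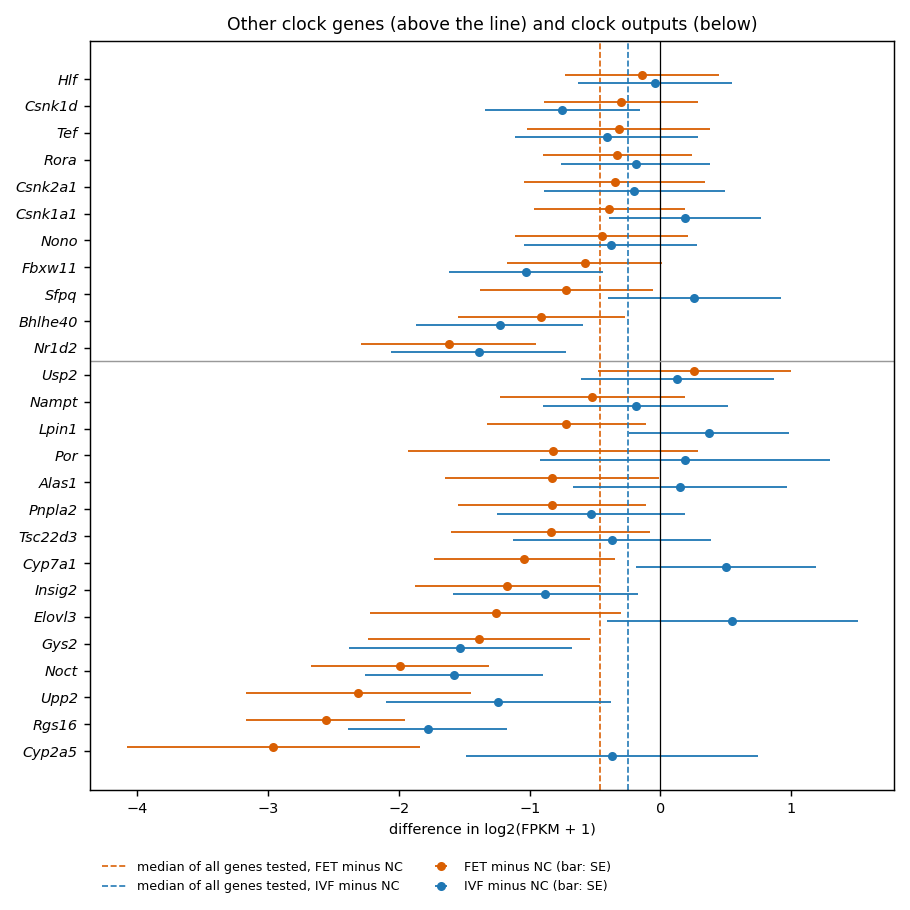
Differences in log2(FPKM + 1) from NC-chow (x axis) for further clock genes (above the grey line) and clock output genes (below it) in FET-chow and IVF-chow, both against the same NC-chow mice. Points are limma estimates, bars are SE and dashed lines are the medians of all 6755 genes (-0.46 and -0.25); Cyp2a5, Rgs16 and Upp2 lie farthest below in FET-chow.

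Genes that answer to feeding, hormones and temperature, which can set the liver clock, were read as a further list of 21, with 18 in the fit. Limma called 0 in each comparison, and at an unadjusted p under 0.05 it gave 4 lower genes in FET-chow, 1 lower and 2 higher in IVF-chow, and 3 lower in FET-chow against IVF-chow, where 10.1%, 2.86% and 2.95% of all genes were lower in the same order and 1.21% were higher in IVF-chow. The list's median difference was -0.89 in FET-chow, against -0.46 for all genes, and -0.02 in IVF-chow, against -0.25. The farthest in FET-chow were Pck1, the gluconeogenic enzyme gene, at -2.74 (SE 1.13), Pklr, the liver pyruvate kinase, at -2.22 (SE 1.03), Igfbp1, a fasting-induced binding protein, and Tat, a glucocorticoid-induced aminotransferase, at -2.08 (SE 1.05). Pck1 stood at 95.2, 174 and 180 FPKM in NC-chow, 39.9, 76.9 and 84.6 in IVF-chow, and 1.45, 78.3 and 51.7 in FET-chow mice. The size of its FET-chow difference rested largely on mouse 2. Pklr stood at 7.67, 75.6 and 84.9 FPKM in NC-chow, 6.14, 19.1 and 80.5 in IVF-chow, and 17.1, 8.45 and 2.29 in FET-chow mice. NC-chow mouse 1 lay below FET-chow mice 2 and 3, so Pklr overlapped. Igfbp1, whose fitted difference of -2.14 (SE 0.64) depends on the pseudocount, was listed at 0 in all FET-chow mice and stood at 3.99, 4.29 and 2.26 FPKM in NC-chow and 0.807, 3.41 and 14.6 in IVF-chow. Tat stood at 97.0, 243 and 168 FPKM in NC-chow, 14.6, 40.8 and 89.7 in IVF-chow, and 33.1, 38.1 and 38.9 in FET-chow mice. In the deposited values both groups were below NC-chow without overlap for Tat and for Pck1. After median-ratio or coding scaling Tat stayed apart, whereas IVF-chow mouse 2 and FET-chow mouse 4 lay above NC-chow mouse 1 for Pck1. The part of these cues in the clock gene differences was not tested.

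The genes most alike to Dbp and to Arntl were ranked by Pearson correlation of log2(FPKM + 1) over the 9 mice, as a description, since the mice share their library depth and group. Dbp, Per3 and the other members were also selected on the differences between these groups, so nothing is read from the rank of a member. Per3 ranked 1 of 6754 genes beside Dbp (r = 0.98), followed by Slc17a9 (0.95), a vesicular nucleotide transporter gene, Nr1d2 (0.94), Mafg (0.94), which encodes a small MAF bZIP factor, and F11 (0.93). Ciart ranked 24 (0.87), Nr1d1 226 (0.76) and Per2 282 (0.74), while Nfil3 was at 0.57, Per1 at 0.24 and Cry1 at -0.04. F11, the gene of a coagulation factor, stood at 14.3, 13.7 and 23.6 FPKM in NC-chow, 2.64, 0.904 and 6.50 in IVF-chow, and 4.27, 4.20 and 5.54 in FET-chow mice. In the deposited values F11 was higher in each NC-chow mouse than in all others, as Dbp was, whereas Nr1d2 overlapped between NC-chow and IVF-chow. After median-ratio or coding scaling FET-chow mouse 4 lay above NC-chow mouse 5 for F11, while Dbp stayed apart. The median-ratio factors of these 2 mice were 0.528 and 1.41.

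Arntl followed other genes. The most alike were Gm3150 (r = 0.99), the heat shock cochaperone gene Dnajb1 (0.97), Sssca1 (0.97), the immediate early gene Fos (0.96) and A930014E10Rik (0.96), over the same 9 mice and 6755 genes. Dnajb1 stood at 3.81, 4.20 and 4.16 FPKM in NC-chow, 2.78, 35.4 and 72.3 in IVF-chow, and 2.02, 1.08 and 3.16 in FET-chow mice. Fos stood at 0, 0.361 and 0.385 FPKM in NC-chow, 0.637, 5.06 and 7.13 in IVF-chow, and 0, 0.616 and 0.295 in FET-chow mice. Each was highest in IVF-chow mice 3 and 4, as Arntl was. Among the 8 clock genes in the fit, Cry1 (0.69) and Nfil3 (0.66) came nearest to Arntl, and Dbp (-0.17), Per3 (-0.24) and Nr1d1 (-0.39) had negative values.

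**Figure D5:**
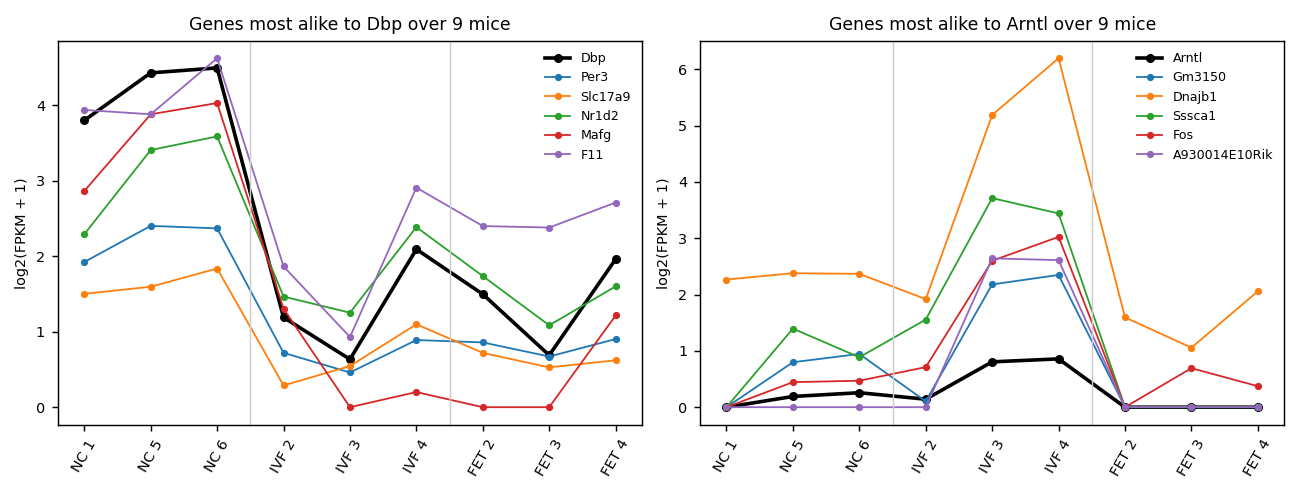
Levels in log2(FPKM + 1) (y axis) over the 9 mice (x axis, grey lines between NC-chow, IVF-chow and FET-chow) of Dbp and Arntl (black) and the 5 genes with the highest Pearson correlation to each. Per3 runs beside Dbp (r = 0.98), high in NC-chow, and the genes beside Arntl are highest in IVF-chow mice 3 and 4.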

How the data were processed

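Liver RNA of 9 mice was sequenced, and groups were taken from the labels. The authors deposited FPKM values per Ensembl gene for the 9 mice. The submitters' processing notes name FastQC 0.11.5, STAR 2.5.3a, StringTie 1.3.1c and DESeq2 1.16.1. Genome build, annotation and strandedness are not given in the sources used here. Symbols and positions came from GENCODE vM21 (GRCm38), which matched 55154 of 55335 identifiers, and promoters from RefSeq (GRCm38.p6). All value columns were mapped to a mouse.

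FPKM are not counts, so no count test was run. Limma 3.58.1 in R 4.3.3 was fitted to log2(FPKM + 1) with 1 model for the 3 groups and a variance trend, over 6755 genes with a mean of at least 1 FPKM, two-sided, and an adjusted p (Benjamini-Hochberg over all 6755) under 0.05 was called. The fit was tested on simulated data. Depth was estimated from whole-fragment steps (up to 8 fragments, tolerance 2%): between 42.6% and 51.8% of low values lay on a step, against 9.1% to 16.1% for evenly spread values. Fragments per gene used the longest annotated transcript, and the limit of a count of 0 was 3 fragments. FPKM divides by all mapped fragments, so ribosomal and mitochondrial RNA lower every other gene of a library.

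The members, gene lists and alternatives were chosen with earlier results of these data known. Named genes were the 10 members, called genes and the 6 largest differences in FET-chow against NC-chow in each clock list, called genes and the 4 largest in the list of cues, and the 5 genes most alike to Dbp and Arntl. Of the genes this rule gives, 2 are not reported here. Tef, Hlf and Rora were added after their values were seen. Alternatives were a pseudocount of 0.1, no filter, a mean of at least 10 FPKM, median-ratio, quantile and coding scaling, no variance trend, 2 groups only, a replicate block, each mouse left out and NC-chow mouse 1 alone. Where nothing says that mice of a group are independent of litter, p-values measure the spread between these mice.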

Additional observations from a re-analysis of the deposited data

How the results depend on the processing

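In FET-chow against NC-chow limma called 16 genes (4 higher, 12 lower). The count was 0 with no filter on low values, with no variance trend and with only the 2 groups fitted, 5 (3 higher, 2 lower) at a mean of at least 10 FPKM, 26 (6 higher, 20 lower) with median-ratio scaling and 6 against NC-chow mouse 1 alone. With quantile normalization 6 were higher and 5 lower. Leaving out each mouse gave 1 (without FET-chow mouse 3) to 83 (without NC-chow mouse 1), with 57 without FET-chow mouse 2. Of the 10 clock genes 0 were called, against 1 with a pseudocount of 0.1 (Nfil3), 2 with median-ratio scaling and 2 with coding genes rescaled (Ciart and Nfil3 in both), and 0 to 2 on leaving out each mouse (Dbp and Ciart without NC-chow mouse 1). Of the other clock and output genes 1 was called (Rgs16), against 0 with a pseudocount of 0.1, no filter, a mean of at least 10 FPKM, quantile normalization, coding genes rescaled, no trend, 2 groups only and NC-chow mouse 1 alone, and 0 to 1 on leaving out each mouse. In IVF-chow against NC-chow limma called 4 genes, against 0 with a pseudocount of 0.1, no filter, each of the 3 scalings, no trend and 2 groups only, 2 at a mean of at least 10 FPKM, 2 against NC-chow mouse 1 alone, and 0 (without IVF-chow mouse 3 or 4) to 24 (without NC-chow mouse 1) on leaving out each mouse. In FET-chow against IVF-chow it called 6 genes, against 0 with no filter, no trend and 2 groups only, and 0 (without IVF-chow mouse 4) to 10 (without IVF-chow mouse 2) on leaving out each mouse, and 1 clock gene with coding genes rescaled (Nfil3). Without a filter more genes were tested (27411). The cause of the other changes was not tested. IVF-chow and FET-chow share the mouse numbers 2, 3 and 4. Whether these mark pairs is not stated in the sources used here, and they were not read as pairs. Residuals of mice with the same number correlated by -0.12 on average and those with different numbers by 0.06. Residuals within a group sum to 0, which ties the 2 averages to each other. Single values ran from -0.26 to 0.29, so they cannot decide whether the mice were paired. The replicate block gave 2 genes and 0 clock genes. No member passed a mean of 10 FPKM. Over 280 recomputed differences of single clock genes 256 moved by less than 1 SD between mice. These leave out Nfil3 and Ciart in both FET-chow comparisons, because FET-chow was listed at 0 throughout. Against NC-chow the FET-chow difference of Nfil3 was -2.27, and -5.29 with a pseudocount of 0.1. For Ciart it was -2.14, and -4.79 with coding genes rescaled. Among the 280, signs changed for Cry1 in FET-chow against NC-chow, Nfil3 in IVF-chow against NC-chow, and Per1 and Dbp in FET-chow against IVF-chow. The Dbp difference ranged from -3.49 to -2.33 in FET-chow and from -3.64 to -2.49 in IVF-chow. With 3 to 23 estimated fragments of Dbp in the IVF-chow and FET-chow libraries, depth limits the precision of every low value.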
